A study of Mus musculus with 6 samples.

Results

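Histone genes were taken from the gene tables of a mouse hippocampus study as every row whose name begins with Hist1, Hist2, Hist3, Hist4, H1f, H2af or H3f, which gave 73 of 15639 rows. The 63 rows whose names begin with Hist form the replication-dependent class and the other 10 form the variant class. Of the 73, 71 reached 1 FPKM (fragments per kilobase of transcript, scaled to the mapped fragments of the library) in at least 3 libraries and were tested, and Hist1h2bp and Hist1h2bq were not. The study sequenced total RNA of hippocampus at 6 months of age in 3 libraries labelled APP/PS1 and 3 labelled wild type (WT), with gene levels and circular RNA (circRNA) counts for all 6. APP/PS1 mice carry the APP695swe and PS1-dE9 transgenes, a mutant amyloid precursor protein and a mutant presenilin, as a model of amyloid deposition. The labels name neither the promoter that drives the transgenes nor the mouse line, sex or litter. They do not say that replicates came from different animals. The p-values below therefore rest on library-to-library spread, part or all of which may be technical.

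Histones are the proteins around which DNA is wound. The core histones H2A, H2B, H3 and H4 form the nucleosome, and linker histones of the H1 family bind the DNA between nucleosomes. Replication-dependent genes mostly lie in clusters, are transcribed mostly in S phase and give mRNAs that usually end in a stem-loop and carry no poly(A) tail. Variant genes usually lie singly, are usually transcribed through the cell cycle and usually give polyadenylated mRNAs. The classes used here follow gene names only, so single members may depart from these traits. Neurons no longer divide and rely on variants such as H3.3 for histone replacement. The kit named in the labels is an Illumina TruSeq kit, and the labels do not say whether polyadenylated RNA was selected. Many replication-dependent genes are near-identical copies, so how the authors' pipeline divided shared reads among them can set their single values; this was not tested.

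Labels were checked with the genes App and Prnp. In APP/PS1-labelled replicates 1, 2 and 3, App had 153.1, 71.0 and 166.2 FPKM, and in WT-labelled replicates 1, 2 and 3 it had 69.8, 68.5 and 145.6 FPKM. App encodes the amyloid precursor protein and Prnp the prion protein. Prnp had 471.6, 198.6 and 463.8 FPKM against 188.1, 181.5 and 457.2 FPKM. App thus goes against the label in APP/PS1 replicate 2, which was low, and in WT replicate 3, which was high. Prnp was low and high in the same libraries as App, though nothing in the labels ties it to the transgenes. Groups are therefore named by label only. All 7 hippocampal markers looked for (Prox1, C1ql2, Wfs1, Fibcd1, Spink8, Neurod6 and Zbtb20) were listed in every library, with summed levels of 171 to 187 FPKM in APP/PS1-labelled and 189 to 193 FPKM in WT-labelled libraries. Each of the 7 had a log2 fold change below 0 (median -0.10), and by limma 0 of them reached 0.05, adjusted or not. Summed FPKM was 182355 to 185217 in the 6 libraries, and their depth is unknown.

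The 10 variant genes had a median level of 12.9 FPKM, taken over each gene's mean of the 6 libraries, against 4.39 FPKM for the 63 replication-dependent genes and 4.45 FPKM for all rows. H1f0, which encodes H1.0, the linker histone known to build up in cells that have stopped dividing, was the highest variant: APP/PS1-labelled libraries had 29.4, 28.6 and 28.9 FPKM and WT-labelled libraries 27.8, 30.02 and 27.1 FPKM. H3f3b and H3f3a both encode the same replacement histone, H3.3. H3f3b was listed at 23.7, 23.6 and 23.5 FPKM in APP/PS1-labelled libraries and 23.2, 24.1 and 26.6 FPKM in WT-labelled libraries. For H3f3a the values were 21.0, 20.7 and 21.4 FPKM against 21.4, 20.5 and 24.5 FPKM. Both H3.3 genes had their highest value in WT replicate 3, and the groups of both overlapped.

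Among the H2A variants, H2afz, which encodes the promoter-associated H2A.Z, came first at 13.9, 16.1 and 15.2 FPKM in APP/PS1-labelled libraries, against 13.6, 14.1 and 17.4 FPKM in WT-labelled libraries. H2afx, whose protein is phosphorylated at DNA breaks, followed at 14.4, 14.4 and 14.3 FPKM against 13.8, 15.2 and 14.6 FPKM. The groups of both genes overlapped, and the order between H2afz and H2afx is smaller than the spread over libraries. H2afj, an H2A variant gene, was at 13.1, 11.6 and 10.9 FPKM against 10.9, 10.01 and 10.9 FPKM. Its groups did not overlap, but the lowest APP/PS1-labelled and the highest WT-labelled value differ only beyond the digits printed. H2afv, the second H2A.Z gene, was at 7.52, 8.17 and 8.21 FPKM against 8.27, 8.71 and 8.27 FPKM. The macroH2A genes, which encode H2A with a large additional domain, stood at levels like that of H2afv or below it. H2afy was at 7.72, 8.11 and 8.52 FPKM against 7.99, 8.62 and 8.59 FPKM, and H2afy2 at 5.22, 5.67 and 6.17 FPKM against 4.61, 5.58 and 5.24 FPKM. H2afy and H2afy2 overlapped between labels.

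The replication-dependent genes covered a wider range, from a mean of 0.849 FPKM for Hist1h2bq to 52.5 FPKM for Hist1h4h. The H4 genes stood highest, with a median of 20.8 FPKM over 13 genes. Medians were 4.65 FPKM for 12 H3 genes, 3.93 FPKM for 17 H2A genes, 3.53 FPKM for 5 H1 genes and 3.15 FPKM for 16 H2B genes. Hist1h4h was listed at 61.7, 48.8 and 47.5 FPKM in APP/PS1-labelled libraries, against 49.6, 46.3 and 61.3 FPKM in WT-labelled libraries. Its high libraries were 1 of each label. Hist1h4d, the next H4 gene, was at 48.3, 42.3 and 40.2 FPKM against 45.6, 43.0 and 44.5 FPKM, and Hist1h4k at 36.8, 27.6 and 30.1 FPKM against 29.4, 30.1 and 26.0 FPKM. The H4 genes all encode the same core histone, and the groups of Hist1h4h, Hist1h4d and Hist1h4k overlapped.

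Of the other high replication-dependent genes, Hist2h2bb, an H2B gene, was at 33.8, 33.5 and 29.0 FPKM in APP/PS1-labelled libraries, against 31.7, 24.96 and 30.8 FPKM in WT-labelled libraries. Hist1h4m was at 24.3, 23.3 and 22.7 FPKM against 27.4, 21.3 and 23.7 FPKM, and Hist1h4b at 23.9, 19.6 and 17.5 FPKM against 23.3, 19.5 and 22.7 FPKM. These 3 overlapped between labels. The linker histone gene of the class with the highest level was Hist1h1c, with a mean of 12.6 ± 1.07 FPKM in APP/PS1-labelled libraries and 12.8 ± 1.17 FPKM in WT-labelled libraries (SD, n = 3 each). The H3 genes with the highest levels were Hist1h3i, with 12.2 ± 0.132 FPKM in APP/PS1-labelled and 13.5 ± 1.47 FPKM in WT-labelled libraries, and Hist1h3e, with 11.9 ± 1.66 and 13.7 ± 1.25 FPKM. The order of Hist1h3i and Hist1h3e is within their spread.

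**Figure D1:**
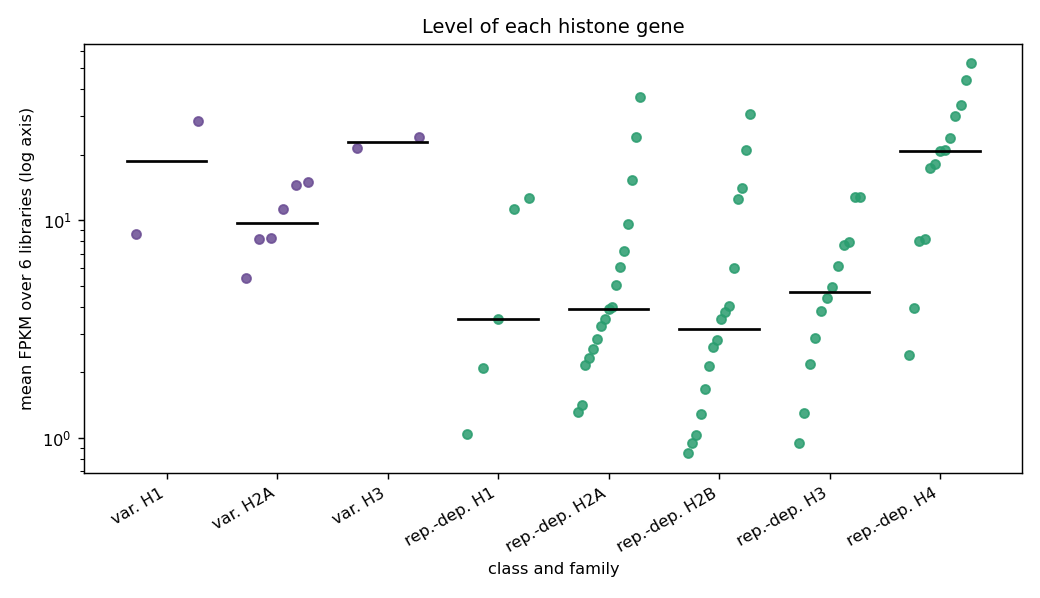
Mean FPKM over the 6 libraries (log axis) of each of the 73 histone genes, by class (var., variant; rep.-dep., replication-dependent) and family, with a bar at each median. The H4 median (20.8 FPKM) stands above the other replication-dependent families (3.15 to 4.65 FPKM), and no variant lies below 5.41 FPKM.

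Summed over its 63 genes, the replication-dependent class gave 80.8%, 81.8% and 79.3% of all histone FPKM in the APP/PS1-labelled libraries and 83.2%, 80.7% and 80.6% in the WT-labelled libraries. The sum was 644, 613 and 593 FPKM in APP/PS1-labelled libraries and 650, 573 and 663 FPKM in WT-labelled libraries. The variant sum was 153, 137 and 155 FPKM against 131, 137 and 160 FPKM. Neither sum separated the labels. The variant sum was at its highest in the libraries where H1fx, described below, was detected. Without H1fx it came to 136 to 137 FPKM in every APP/PS1-labelled library and to 131, 137 and 143 FPKM in the WT-labelled libraries.

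Markers of dividing cells were looked for beside these levels. None of 8 such markers (Mki67, Top2a, Ccna2, Ccnb1, Cdk1, Bub1, Birc5 and Aurkb) is among the rows used here, in which every gene reached at least 0.529 FPKM in some library. Of 30 S phase and proliferation genes, 13 were listed and 8 tested. Pcna, the sliding clamp of DNA polymerase, had the highest values of these, 8.29, 8.28 and 10.3 FPKM in APP/PS1-labelled libraries and 7.65, 8.02 and 10.004 FPKM in WT-labelled libraries. Of the 6 subunits of the replicative helicase, Mcm4 was at 2.71 to 3.50 FPKM over the 6 libraries, Mcm6 at 1.92 to 2.59 FPKM and Mcm7 at 1.34 to 1.80 FPKM, while Mcm2, Mcm3 and Mcm5 lay at or under 0.724 FPKM in every library and were not tested. In bulk tissue, fewer cells of a type and less RNA per cell cannot be told apart.

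H1fx, the gene of the linker histone H1.X, had 2 levels. APP/PS1-labelled replicates 1, 2 and 3 list it at 17.3, 0 and 17.6 FPKM, and WT-labelled replicates 1, 2 and 3 at 0, 0 and 16.9 FPKM. The 3 high values lay within 0.0559 log2 units of each other, and the other 3 libraries list exactly 0, which in a table without counts may also be a failed estimate. No fold is given against a listing at 0. By label, H1fx did not pass by limma (adjusted p = 0.933), and the groups overlapped, with 2 of 3 APP/PS1-labelled and 1 of 3 WT-labelled libraries above 0.

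The sequence around the H1fx start is shown because this gene carries the two-level pattern. RefSeq (build GRCm38.p6) places the window, from 250 bases before to 50 bases after the annotated start, at chr6:87981433-87981732 on the minus strand. Capitals would mark, on either strand, TATAAA (the TATA box), CCAAT (the CCAAT box), ATTTGCAT (the octamer) or AAACACA (the H1 box), and this window, 77.7% G and C, holds none.
H1fx: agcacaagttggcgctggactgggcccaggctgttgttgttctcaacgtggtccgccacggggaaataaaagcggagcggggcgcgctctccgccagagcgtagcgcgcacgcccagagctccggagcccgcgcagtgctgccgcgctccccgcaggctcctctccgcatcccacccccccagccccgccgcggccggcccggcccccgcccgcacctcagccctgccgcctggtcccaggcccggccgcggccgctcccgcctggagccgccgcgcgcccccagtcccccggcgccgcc

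A gene was counted as two-level when its 6 sorted log2(FPKM + 1) values had their widest gap with at least 2 libraries on either side, and when that gap was at least 0.5 and at least 2 times the larger range on either side. H1fx was the 1 member of 71 tested that met this, against 165 of all 13700 genes tested (1.2%). Its gap of 4.16 log2 units was the second widest of the 13700 genes. H1fx and Gm20431 were the only tested genes listed at 0 in at least 2 libraries and at 10 FPKM or more in another. With a gap of at least 0.3 the rule took in 2 of 71 members, against 280 of all 13700 genes tested (2.04%). The further member was Hist1h4h, with a gap of 0.3012. Its high libraries, APP/PS1 replicate 1 and WT replicate 3, were not those of H1fx.

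Of the 165 two-level genes, 6 had the same high and low libraries as H1fx, counting H1fx itself, and App and Prnp were among them. Cds2, which encodes a CDP-diacylglycerol synthase, was listed at 66.0, 13.8 and 67.2 FPKM in APP/PS1-labelled libraries against 13.0, 14.1 and 69.5 FPKM in WT-labelled libraries. 1110051M20Rik was at 12.1, 6.35 and 11.97 FPKM against 6.39, 6.63 and 12.4 FPKM, and Mboat2, of the membrane-bound O-acyltransferase family, at 7.14, 4.27 and 8.02 FPKM against 4.62, 4.11 and 8.18 FPKM. In each of the 6 genes APP/PS1 replicate 2 lay with WT replicates 1 and 2, and WT replicate 3 with APP/PS1 replicates 1 and 3. Prnp, Cds2 and 1110051M20Rik lie on chromosome 2 in the RefSeq table, App on chromosome 16, Mboat2 on chromosome 12 and H1fx on chromosome 6. Libraries were neither regrouped nor tested by these levels.

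**Figure D2:**
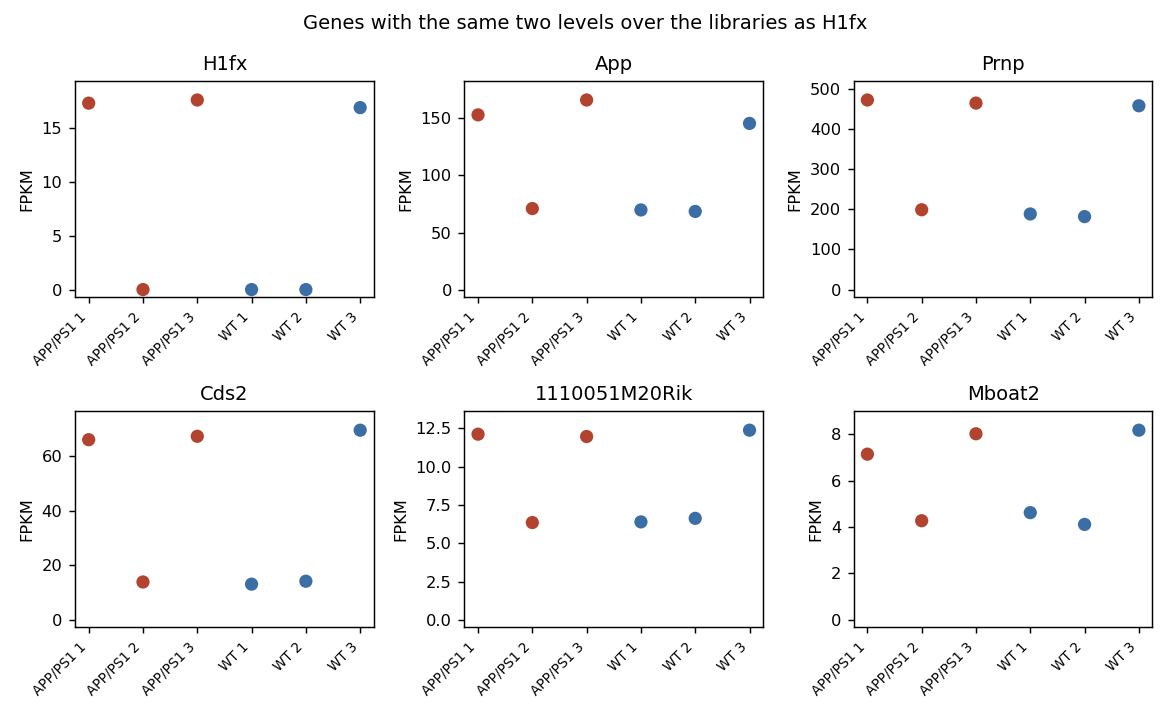
FPKM of the 6 two-level genes that share high and low libraries, 1 point per library, APP/PS1-labelled in red and WT-labelled in blue. H1fx stands at 16.9 to 17.6 FPKM in APP/PS1 replicates 1 and 3 and WT replicate 3 and is listed at 0 in the other libraries.

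When APP/PS1 replicate 2 and WT replicate 3 were left out, H1fx passed by limma (adjusted p = 0.000414). The remaining APP/PS1-labelled libraries had 17.3 and 17.6 FPKM, and both remaining WT-labelled ones 0. Over all alternatives to the test of 6 libraries, this one among them, the limma adjusted p of H1fx ran from 0.000414 to 1.0. In the comparison of 4 libraries 0.0803% of all genes passed on the higher side. The libraries were left out because of App and Prnp, with which H1fx shares its split, so its p in these 4 libraries supports nothing further.

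Several Hist2 genes varied over libraries without following label or H1fx. Replication-dependent genes as a class had a median SD of 0.165 over the 6 libraries on the log2(FPKM + 1) scale, against 0.0807 for variants and 0.104 for all genes tested. After H1fx, the members with the largest SD were Hist2h2aa1, Hist2h2ab, Hist2h3c1 and Hist2h2ac. Hist2h2aa1 and Hist2h2aa2 are H2A genes that stand head to head on chromosome 3. Hist2h2aa1 was listed at 7.98, 36.3 and 20.3 FPKM in APP/PS1-labelled libraries, against 37.9, 0.0581 and 41.9 FPKM in WT-labelled libraries. Hist2h2aa2 was at 46.4, 45.6 and 35.97 FPKM against 36.1, 27.1 and 29.8 FPKM. Their sum was 54.4, 82.0 and 56.2 FPKM against 73.9, 27.2 and 71.6 FPKM, so it too was lowest where Hist2h2aa1 was nearly 0, in WT replicate 2. The sum overlapped between labels.

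The start windows of this pair are shown because these head-to-head copies have like sequence around their annotated starts. They are mostly promoter and say nothing of how reads were assigned. With one shifted by 40 bases, 249 of 260 bases are the same. The Hist2h2aa2 window ends before the place where Hist2h2aa1 has TATAAA, so that place cannot be compared. That TATAAA lies 11 bases after the annotated start of Hist2h2aa1, and a CCAAT of Hist2h2aa2 lies 14 bases after its annotated start. Whether the annotated starts are those used in these libraries was not tested. Both windows are RefSeq GRCm38.p6, Hist2h2aa1 at chr3:96245247-96245546 on the plus strand and Hist2h2aa2 at chr3:96240325-96240624 on the minus strand, and capitals mark CCAAT or its reverse complement ATTGG, and TATAAA.
Hist2h2aa1: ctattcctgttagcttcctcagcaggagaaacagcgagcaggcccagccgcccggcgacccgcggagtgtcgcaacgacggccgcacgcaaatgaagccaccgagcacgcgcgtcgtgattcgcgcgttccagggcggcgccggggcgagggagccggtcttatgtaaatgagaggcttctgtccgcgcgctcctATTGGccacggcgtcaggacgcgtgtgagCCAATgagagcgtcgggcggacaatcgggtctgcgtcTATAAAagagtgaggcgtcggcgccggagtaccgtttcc
Hist2h2aa2: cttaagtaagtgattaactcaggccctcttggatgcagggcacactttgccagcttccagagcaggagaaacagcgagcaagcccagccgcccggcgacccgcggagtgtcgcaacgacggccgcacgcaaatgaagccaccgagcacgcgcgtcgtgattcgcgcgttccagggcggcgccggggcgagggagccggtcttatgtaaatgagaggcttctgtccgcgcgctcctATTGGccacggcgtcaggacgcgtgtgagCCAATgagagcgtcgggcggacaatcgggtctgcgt

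Hist2h2ab, another H2A gene, had 0, 4.77 and 4.80 FPKM in APP/PS1-labelled libraries, against 3.95, 2.12 and 3.90 FPKM in WT-labelled libraries. Hist2h2ac was at 11.4, 10.4 and 5.60 FPKM against 7.61, 3.92 and 4.28 FPKM. Hist2h3c1, an H3 gene, was at 2.91, 0.138 and 0.985 FPKM against 0.811, 1.24 and 1.74 FPKM. The groups of all 3 overlapped. APP/PS1 replicate 1 was the lowest library for Hist2h2ab and the highest for Hist2h3c1, while Hist2h2aa1 was lowest in WT replicate 2.

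**Figure D3:**
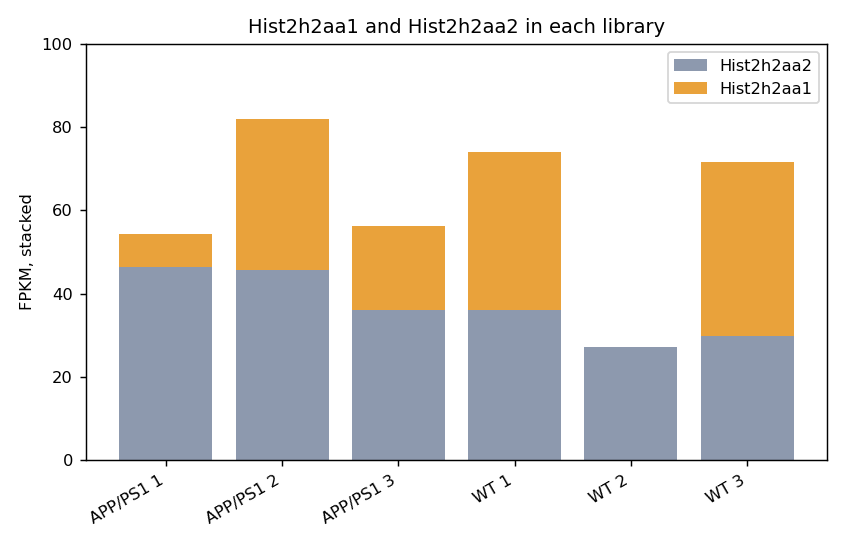
Stacked FPKM of Hist2h2aa2 (grey) and Hist2h2aa1 (orange) in each library. The orange part ranges from 0.0581 FPKM in WT replicate 2 to 41.9 FPKM in WT replicate 3, while the grey part stays between 27.1 and 46.4 FPKM.

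Between labels, 0 of the 71 tested histone genes passed an adjusted p of 0.05 by limma over all 13700 genes, where 0.0073% of all genes passed on the higher and 0.0146% on the lower side. The smallest adjusted p of a member was 0.417. At an unadjusted p under 0.05 there were 9 members, all replication-dependent, 2 of them higher and 7 lower in the APP/PS1-labelled libraries. That is 2.82% of the tested members on the higher side, against 2.85% of all genes tested, and 9.86% on the lower side, against 3.83% of all genes tested. Many members are similar in sequence, and how far they share reads was not measured, so they are not counted as independent of each other. None of the 10 variants was among the 9.

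The lower side held mainly H2A and H2B genes of the Hist1 cluster. Hist1h2be, an H2B gene, was at 1.19, 1.31 and 1.47 FPKM in APP/PS1-labelled libraries and at 2.16, 1.91 and 2.05 FPKM in WT-labelled libraries, without overlap (log2 fold change -0.39 with SE 0.0824, limma adjusted p = 0.417). The H2A gene Hist1h2ac was at 1.12, 0.994 and 0.994 FPKM against 1.86, 1.68 and 1.27 FPKM (log2 fold change -0.35, SE 0.105, limma adjusted p = 0.639). Fold changes are on the log2(FPKM + 1) scale, which understates the change of genes as low as these.

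Hist1h2bc, the highest H2B gene of the Hist1 cluster, was at 21.5, 17.3 and 19.4 FPKM in APP/PS1-labelled libraries, against 22.4, 22.6 and 22.5 FPKM in WT-labelled libraries (log2 fold change -0.21, SE 0.0760, limma adjusted p = 0.696). All 3 WT-labelled values lay close together and above every APP/PS1-labelled one. Hist1h2ae, an H2A gene, was at 1.94, 1.88 and 2.53 FPKM against 2.78, 3.43 and 2.74 FPKM (log2 fold change -0.36, SE 0.111, limma adjusted p = 0.642). Its head-to-head neighbour Hist1h2bg, an H2B gene, was at 12.3, 9.65 and 11.9 FPKM against 13.3, 12.3 and 15.8 FPKM (log2 fold change -0.27, SE 0.115, limma adjusted p = 0.741). The groups of Hist1h2ae did not overlap, and those of Hist1h2bg were apart only beyond the digits printed, with APP/PS1 replicate 1 and WT replicate 2 both at 12.3 FPKM.

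A pair of H4 genes completed the lower side. Hist1h4n was at 32.8, 29.7 and 28.1 FPKM in APP/PS1-labelled libraries, against 33.7, 36.3 and 42.4 FPKM in WT-labelled libraries (log2 fold change -0.30, SE 0.0935, limma adjusted p = 0.642). Hist2h4 was at 7.61, 6.65 and 7.13 FPKM against 8.78, 8.44 and 9.77 FPKM (log2 fold change -0.30, SE 0.0749, limma adjusted p = 0.542). Neither overlapped between labels. On the higher side stood Hist2h2aa2, given above (log2 fold change 0.45, SE 0.132, limma adjusted p = 0.632), and the H3 gene Hist2h3b. Hist2h3b was at 9.14, 7.78 and 8.87 FPKM against 7.57, 6.82 and 7.37 FPKM (log2 fold change 0.22, SE 0.0748, limma adjusted p = 0.683).

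**Figure D4:**
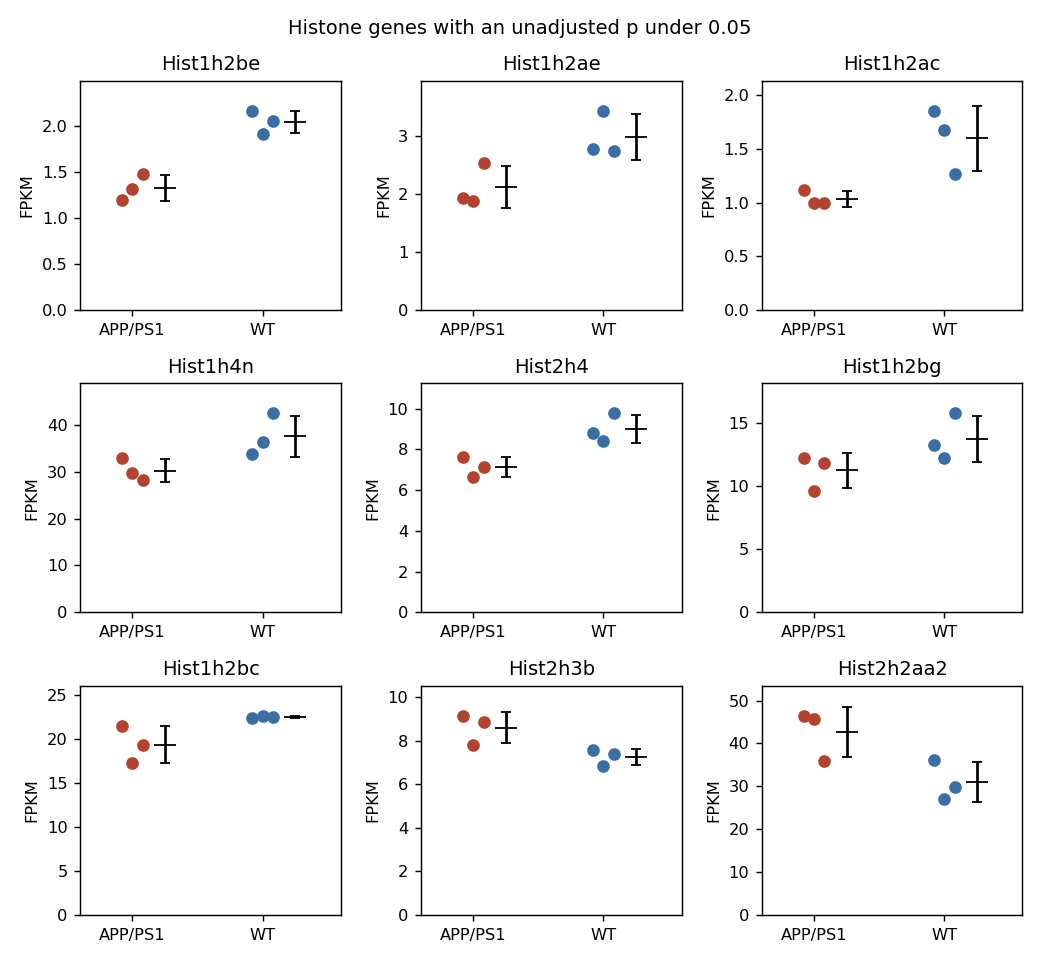
FPKM of the 9 histone genes with an unadjusted p under 0.05, APP/PS1-labelled libraries (red) beside WT-labelled ones (blue), 1 point per library, with mean and SD in black. Hist1h2be, at 1.19 to 1.47 FPKM in APP/PS1-labelled against 1.91 to 2.16 FPKM in WT-labelled libraries, has the smallest p, and 0 of the 9 passed after adjustment.

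By family, 13 of 17 replication-dependent H2A genes and 10 of 14 H2B genes had a negative log2 fold change, against 8 of 13 H4, 6 of 12 H3 and 2 of 5 H1 genes. Of all genes tested, 50.4% were negative. The median log2 fold change was -0.09 for H2A and -0.09 for H2B, -0.03 for H4, 0.01 for H3 and 0.05 for H1, beside -0.00089 for all genes tested. Among variants, 5 of 10 were negative. Within the Hist1 cluster, a grouping made after these values were seen, 20 of 23 H2A and H2B genes were negative with a median of -0.11, while 12 of 25 H1, H3 and H4 genes were, with a median of 0.0079. The 10 Hist2 genes had a median of 0.15, with 4 negative. Hist2h2aa1 counts as positive (0.67) with 0.0581 FPKM in WT replicate 2, though its mean FPKM was lower in APP/PS1-labelled libraries (21.5 against 26.6). Hist2h2ab counts as negative (-0.39) with 0 FPKM in APP/PS1 replicate 1, at means of 3.19 and 3.33 FPKM. Because the members were chosen with results known, no test was made over families.

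**Figure D5:**
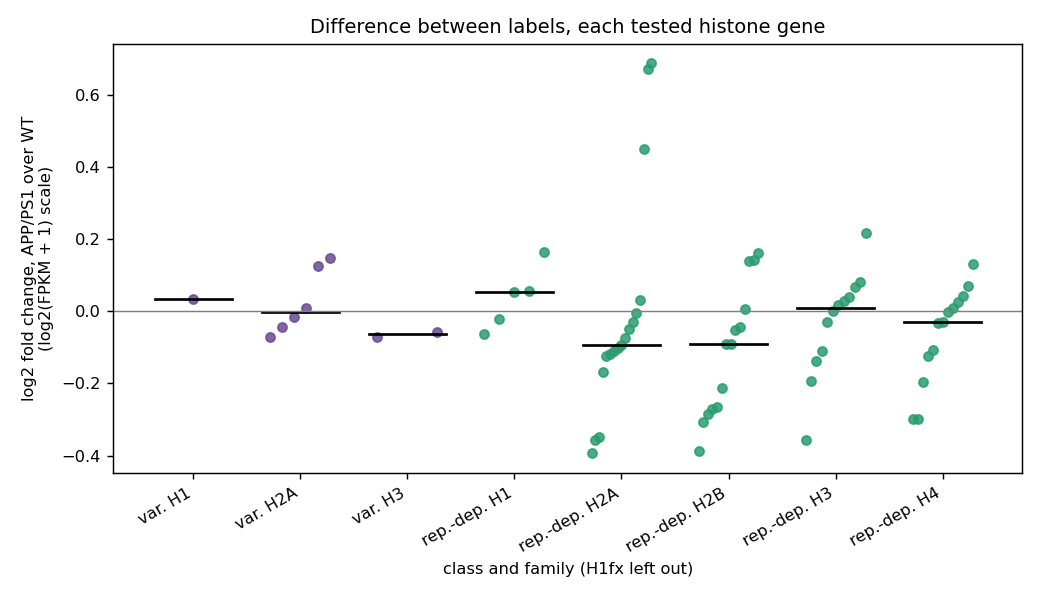
Log2 fold change (APP/PS1 over WT, log2(FPKM + 1) scale) of each tested histone gene but H1fx, by class and family, with a bar at each median. Medians lie at -0.09 for replication-dependent H2A and H2B genes, and single values run from -0.39 to 0.69.

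Groups did not overlap for 3 members on the higher side (Hist2h3b, H2afj and Hist1h3f) and for 10 on the lower side, where 5.38% and 6.51% of all genes tested did so. The 10 were Hist1h2be, Hist2h4, Hist1h2ac, Hist1h4n, Hist1h2ae, Hist1h2bc, Hist1h2bg, Hist1h3i, Hist1h2ag and H2afv. Among those not given above, Hist1h2ag, an H2A gene, had 2.03 ± 0.0711 FPKM in APP/PS1-labelled and 2.29 ± 0.136 FPKM in WT-labelled libraries (SD, n = 3 each). Hist1h3f had 6.34 ± 0.276 and 5.94 ± 0.102 FPKM.

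Leaving out APP/PS1 replicate 2 and WT replicate 3 brought the higher side at an unadjusted p under 0.05 to 3 members, of which H1fx was 1, and the lower side to 3. Each is 4.23% of the tested members, against 4.2% of all genes tested on the higher side and 4.98% on the lower side, so the lower share of members was then not above that of all genes. Of the 9, those with an unadjusted p under 0.05 in these 4 libraries were Hist1h2be, Hist1h2ac, Hist2h4 and Hist2h3b. Hist1h2bg then had a log2 fold change of -0.08, Hist1h2bc of -0.14 and Hist1h4n of -0.20. Without APP/PS1 replicate 2 alone Hist1h2bg was at -0.17 and Hist1h2bc at -0.14, and without WT replicate 3 alone Hist1h2bg was at -0.17. Leaving out WT replicate 1 alone brought the lower side to 11 members (15.5%, against 3.72% of all genes tested). With only genes at 5 FPKM or more in at least 3 libraries, the lower side held 3 of 41 members (7.32%, against 4.05% of all genes then tested). The higher side with that filter held 2 (4.88%, against 2.33%). Hist1h2be, Hist1h2ac and Hist1h2ae, which lie at low levels, were then not tested. The higher side held 1 member (1.41%) without APP/PS1 replicate 1, against 1.53% of all genes, and 1 without WT replicate 2, against 2.2% of all genes. With array weights it held 4 members (5.63%), against 3.89% of all genes. Markers of other cell types were read beside these counts. The 6 choroid plexus markers summed to 1198, 1389 and 1115 FPKM in APP/PS1-labelled libraries, against 1068, 1203 and 858 FPKM in WT-labelled libraries, and these sums overlapped. All 6 had a positive log2 fold change, while 0 passed after adjustment by limma (smallest adjusted p = 0.367). On the higher side 3 did not overlap between labels, against 5.38% of all genes tested. There were also 3 higher at an unadjusted p under 0.05 (50%), against 2.85% of all genes tested. Those of erythroid cells, with 3 of 5 listed, summed to 291, 245 and 432 FPKM against 331, 209 and 209 FPKM, and 5 microglia markers to 76.1, 67.2 and 67.3 FPKM against 67.5, 73.0 and 74.4 FPKM. Their part in the histone values was not tested.

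Head-to-head neighbours share the DNA between their starts. Among the members, 12 such pairs were found in the RefSeq table, 10 of them with both genes tested. Pairs were taken by strand and order, with no limit on the distance between starts. The start windows of Hist1h2ae and Hist1h2bg overlap, while those of Hist2h2aa1 and Hist2h2aa2 do not. Of these 10, 5 had both log2 fold changes negative, 1 had both positive and 4 had opposite signs. The pair with both positive was Hist2h2aa2 and Hist2h2aa1, and the mean FPKM of Hist2h2aa1 was lower in APP/PS1-labelled libraries (21.5 against 26.6). Both Hist1h2ae and Hist1h2bg were among the 9 genes above, but Hist1h2bg kept an unadjusted p under 0.05 in only 5 of 15 alternatives. The pair Hist1h2ag and Hist1h2bj had log2 fold changes of -0.12 and -0.28, Hist1h2bf and Hist1h2ad of -0.31 and -0.17, and Hist1h2ak and Hist1h2bn of -0.07 and -0.27. H2afj and its neighbour Hist4h4, an H4 gene, had values of opposite sign, at 0.15 and -0.20. None of these 8 passed the adjusted threshold.

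The window of Hist1h2bg is shown as an example of a short shared stretch, and that of Hist1h4h as the gene of the class with the highest level. Both are RefSeq GRCm38.p6 on the plus strand, Hist1h2bg at chr13:23571150-23571449 and Hist1h4h at chr13:23530794-23531093. Capitals mark, on either strand, TATAAA (the TATA box), CCAAT (bound by NF-Y in other promoters) and ATTTGCAT (the octamer known from H2B promoters).
Hist1h2bg: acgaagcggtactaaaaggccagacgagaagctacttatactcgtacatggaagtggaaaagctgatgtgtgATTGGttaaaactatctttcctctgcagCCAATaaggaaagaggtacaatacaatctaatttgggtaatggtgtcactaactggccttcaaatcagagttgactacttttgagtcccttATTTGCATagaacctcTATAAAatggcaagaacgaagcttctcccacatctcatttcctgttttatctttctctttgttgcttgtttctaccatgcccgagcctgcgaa
Hist1h4h: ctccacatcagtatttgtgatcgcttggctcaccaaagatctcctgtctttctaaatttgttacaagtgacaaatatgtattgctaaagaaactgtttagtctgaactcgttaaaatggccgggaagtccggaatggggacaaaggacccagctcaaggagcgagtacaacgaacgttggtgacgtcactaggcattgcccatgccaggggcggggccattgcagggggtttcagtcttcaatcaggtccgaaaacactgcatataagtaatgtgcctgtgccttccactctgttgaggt

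RefSeq promoter windows were found for 66 of the 73 genes, 57 replication-dependent and 9 variant. CCAAT stood in 45 of 45 windows of replication-dependent H1, H2A, H2B and H3 genes and in 3 of 12 windows of H4 genes, the family with the highest levels, beside 37.9% of all 27025 windows in the table and 6 of 9 variant windows. TATAAA stood in 57.9% of replication-dependent windows, 1 of 9 variant windows and 14.2% of all. ATTTGCAT was found in 6 of 16 H2A and 5 of 14 H2B windows and in 0 windows of the other replication-dependent families. It stood in 1 of 9 variant windows and in 1.75% of all. AAACACA, the H1 box, stood in 4 of 5 windows of replication-dependent H1 genes, in neither H1f0 nor H1fx, and in 7.14% of all. The same letters stood in 1 of 16 H2A, 1 of 14 H2B and 1 of 9 variant windows. Both strands were searched, matches of different motifs overlapped in 0 member windows, and neighbours in a head-to-head pair can share a match. Median G and C content was 45.3% in replication-dependent windows, 71.3% in variant windows and 52.7% in all. A match describes letters and is no site of binding.

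Genes that make or handle histones were read from the same test. Of 20 tested genes of histone mRNA processing, such as Slbp, the stem-loop binding protein, 0 passed by limma after adjustment. Their median log2 fold change was -0.02. At an unadjusted p under 0.05 there were 0 higher and 1 lower (5%), against 2.85% and 3.83% of all genes tested. The 1 gene was Srrt, which links the mRNA cap to 3' end formation, at 11.3 ± 0.426 FPKM in APP/PS1-labelled and 12.7 ± 0.762 FPKM in WT-labelled libraries (SD, n = 3 each). Snrpe, a core protein of small nuclear ribonucleoproteins, was at 6.93 ± 1.57 and 5.27 ± 0.566 FPKM, Npat, the activator of histone transcription, at 7.10 ± 0.297 and 6.55 ± 0.459 FPKM, and Cpsf1, of the cleavage factor, at 9.52 ± 0.0597 and 10.2 ± 0.595 FPKM.

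Histone chaperones, which escort histones to and from DNA, also gave 0 of 38 past the adjusted threshold by limma. At an unadjusted p under 0.05 there were 2 higher (5.26%) and 0 lower, against 2.85% and 3.83% of all genes tested. Both were of the nucleosome assembly protein family known from neurons. Nap1l5 was at 106.5, 104.1 and 100.6 FPKM in APP/PS1-labelled libraries, against 91.7, 92.6 and 97.0 FPKM in WT-labelled libraries, and Nap1l3 at 15.3, 14.3 and 14.99 FPKM against 12.8, 13.4 and 14.0 FPKM. Neither overlapped between labels. Of the 8 tested S phase and proliferation genes 0 passed at either level by limma, and their median log2 fold change was 0.04.

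Of 17 nuclear structure genes, chromatin proteins that bind beside or compete with linker histones among them, 0 passed after adjustment by limma. At an unadjusted p under 0.05 there were 1 higher (5.88%) and 2 lower (11.8%), against 2.85% and 3.83% of all genes tested. Hmgn2, which encodes a nucleosome-binding protein of the HMGN family, was at 4.69, 4.82 and 5.42 FPKM in APP/PS1-labelled libraries, against 6.29, 6.84 and 7.06 FPKM in WT-labelled libraries, without overlap (log2 fold change -0.37, SE 0.0746, limma adjusted p = 0.357). Parp1, a poly(ADP-ribose) polymerase that acts at DNA breaks, was at 16.0 ± 0.968 and 17.8 ± 0.360 FPKM, and Hmga1, an AT-hook protein, at 8.98 ± 0.516 and 7.94 ± 0.439 FPKM (SD, n = 3 each).

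In the circRNA tables, 257 of 2246 circRNAs are listed by coordinates, and 0 of these lay inside a histone gene of the GRCm38 RefSeq table. Their build is not stated beyond the mm9 of the submitters' processing notes, which is another build than GRCm38. A circRNA was counted only where it lay wholly inside the span of a gene, which is 435 bases for Hist1h4h. The count of 0 therefore cannot show whether histone genes give circRNAs. The hosts of the others, listed by database number, were not analysed here. Total circRNA reads per library were 19584, 18064 and 19448 in APP/PS1-labelled libraries and 13998, 17843 and 18866 in WT-labelled libraries.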

How the data were processed

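Gene tables deposited by the authors were read as FPKM. No header names the unit, which was taken from decimals, the totals and the listing of StringTie. circRNA tables deposited by the authors hold whole-number read counts. FastQC, HISAT2, StringTie and mm9 are listed in the submitters' processing notes; versions, annotation and circRNA caller are not given in the sources used here. Tested were the 13700 of 15639 rows that reached 1 FPKM in 3 or more libraries, with limma 3.58.1 in R 4.3.3 on log2(FPKM + 1), with trend and robust settings and the label as the only term, and Benjamini-Hochberg adjustment over all genes tested at 0.05. The script was tested on simulated data. Without counts, depth and its error are unknown, so count models were not used.

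Members and lists were chosen with earlier results of these data known. Named are H1fx, members with an unadjusted p under 0.05 or a two-level pattern, the 10 highest of each class, and up to 4 genes per list by smallest p, with a few further members chosen after their values were seen. Of 73 names, 72 matched 1 entry of the RefSeq table (GRCm38.p6), mostly through older symbols, and the first promoter listed per gene was used. Sums over members carry no test.

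Alternatives were other pseudocounts, filters, scalings, weights, a replicate block and libraries left out.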

Additional observations from a re-analysis of the deposited data

How the results depend on the processing

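Each of the 10 fold changes of histone genes followed through the alternatives (the 9 with an unadjusted p under 0.05 and H1fx) kept its direction in all 147 values computed. All of the 9 but Hist2h2aa2 had groups without overlap, so leaving out libraries could not reverse them. The 9 were also picked by p from these same values, so their kept direction adds no support. An unadjusted p under 0.05 was less stable: Hist1h2bg had one in 5 of 15 alternatives, Hist1h2bc in 9 of 15, Hist2h3b in 12 of 15 and Hist1h2ae in 12 of 14, and each of the other 5 in all or all but 1. The count of members past the adjusted threshold stayed at 0 under each alternative except without WT replicate 3 and APP/PS1 replicate 2, where H1fx made it 1. Among all genes, the count was 1 higher and 2 lower. It became 2 higher and 3 lower with array weights, and ran from 1 to 11 higher and from 1 to 22 lower when libraries were left out. With the replicate number as a block, 0 genes were lower and 1 higher, and 0 histone genes passed. Replicate numbers are not said to pair the libraries. Deviations from the group means correlated at 0.00983, -0.0561 and -0.0941 for numbers 1, 2 and 3. APP/PS1 replicates 1 and 2 correlated best with WT replicate 3 (0.0397 and 0.0614), and APP/PS1 replicate 3 with WT replicate 2 (0.101). Only WT replicate 1 correlated best with its own number. Deviations from means of 3 libraries cannot decide whether libraries were paired. The 4 lists kept 0 genes past the threshold under the alternatives run. A gap of at least 0.3 gave 2 two-level members of 71, against 2.04% of all genes tested. The replication-dependent share averaged 80.6% in APP/PS1-labelled and 81.5% in WT-labelled libraries. Without the highest member of each class it was 82.5% and 83.4%, and without H1fx, an alternative added after seeing the data, 81.9% and 82.0%. The cause of these changes beyond fewer genes or libraries was not tested. Values at a few FPKM, where most histone genes lie, are limited by an unknown depth.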
